A study of Mus musculus with 8 samples.

Results

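Semaphorins are guidance cues, plexins are the receptors that read them, and neuropilins are co-receptors of the secreted ones. The family was taken as every gene whose array symbol is Sema followed by a digit from 3 to 7 and a letter from a to g, Plxn followed by a letter from a to d with or without a digit, Nrp1 or Nrp2. This gave 31 genes, 20 semaphorins, 9 plexins and 2 neuropilins, out of 20353 genes measured, and 763 of the 241576 probe sets of the array. All members could be measured, and no filter on dim genes was applied.

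The samples were cerebella of 4 Cic-L-null mice and 4 wild-type mice, all 28 days old and all labelled as of a mixed Swiss Webster (CD-1) background, with 1 Affymetrix Mouse Gene 1.0 ST array per animal. Capicua (Cic) is a DNA-binding repressor of genes downstream of receptor tyrosine kinases and a partner of ataxin-1. The mutant label does not say which part of the gene is altered, in which cells, or how the line was made, and no further allele or treatment is given for either group. The question addressed here is how levels of guidance genes differ in the cerebellum of mice labelled Cic-L-null. Values are log2 expression values, so a difference of 1 is a 2-fold difference in signal, and all differences are Cic-L-null minus wild-type.

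Semaphorins act by opening plexins, whose inner part switches off small GTPases of the Ras and Rap kind, so that a growing axon or a moving cell turns away or draws near. Secreted class 3 semaphorins mostly need a neuropilin beside a plexin of the A group, whereas the membrane-bound classes bind plexins directly. In the cerebellum the family is known for the inward migration of granule cells, for Purkinje cell dendrites and climbing fibre synapses, and for the perineuronal nets of nuclear neurons.

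The arrays were alike. Their median log2 value lay between 7.82 and 7.88, and gene values correlated between 0.991 and 0.995 over all pairs of arrays. Cic itself averaged 7.54 ± 0.061 in Cic-L-null and 8.78 ± 0.28 in wild-type cerebella (SD, n = 4 each), a difference of -1.25 (SE 0.12), with no overlap between the groups. A limit for dim genes was set at 6.24, the 95th percentile of the wild-type means of 985 olfactory receptor genes. All 12 granule cell markers and all 10 measured Purkinje cell markers had wild-type means above it. So did all 11 choroid plexus and ependyma markers, whereas 5 of 9 measured brainstem and forebrain markers did not. Passing this limit does not identify the tissue, which was taken from the labels. The arrays held Y-linked signal in 3 of 4 Cic-L-null and 2 of 4 wild-type animals. The extraction label of wild-type replicate 1 differs from those of the other 7 arrays.

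In the mutant cerebellum Sema3c, a secreted cue, fell, and it was the only member called at an adjusted p under 0.05 over all genes (limma, Benjamini-Hochberg), where 0.138% of all genes were called, 0.0491% lower and 0.0884% higher. The next smallest p belonged to uncalled differences. They were upward in the receptors Plxnc1, Plxna2 and Plxnb2, the membrane cues Sema6a and Sema6c and the secreted cue Sema3a, and downward in the membrane cue Sema7a. The receptor Plxnb1 (-0.18) and the cue Sema5a (-0.22) were also lower, at an unadjusted p under 0.05. An unadjusted p under 0.05 was found for 13 of 31 members (41.9%), 9 higher and 4 lower, where 9.26% of all genes had one, 4.56% higher and 4.7% lower. The groups did not overlap in 8 members (25.8%), 6 higher and 2 lower, against 5.94% of all genes, 3.02% higher and 2.91% lower. Genes with as many probe sets as the members, 14 to 39, and above the dim limit had shares of 11.9% and 9% over 4155 genes, a comparison chosen after these values were seen.

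The differences ran from -0.47 for Sema3c to 0.55 for Plxnc1, with 19 members above and 12 below 0, where 53% of all genes lay below 0. Their median was 0.067, beside -0.0071 over all genes. The median size of a difference, without its sign, was 0.15 in the family and 0.064 over all genes. A difference beyond 0.2 in either direction was seen in 9 members (29%) and in 7.74% of all genes. These counts describe the family and were not tested, because the members were chosen with earlier results of these data known.

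**Figure D1:**
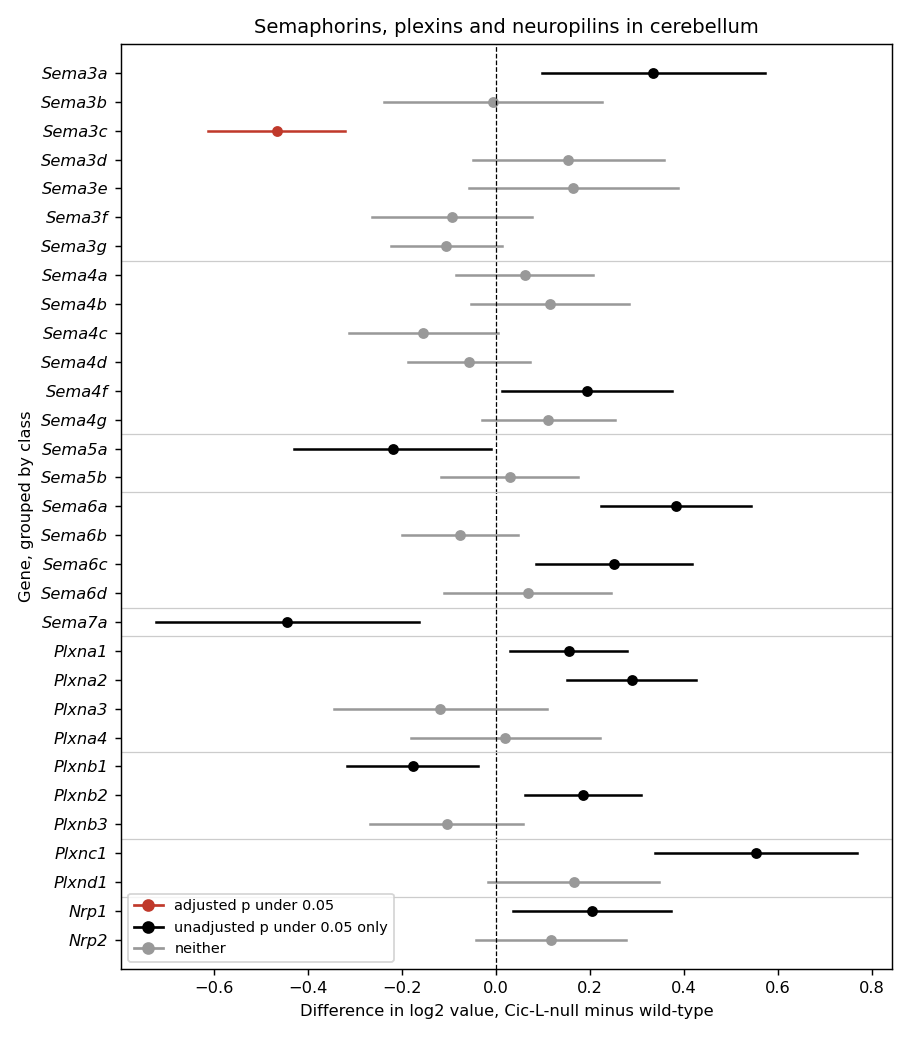
Difference in log2 value between Cic-L-null and wild-type cerebella for each of the 31 genes, with its 95% interval from limma before any adjustment, grouped by class (n = 4 arrays per group). Only Sema3c is past the adjusted threshold, at -0.47, and 12 further genes have an unadjusted p under 0.05.

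Promoter sequences of 4 members are shown, Sema3c as the called gene and Sema7a, Plxnc1 and Plxna2 as cues and receptors with large differences. They are from RefSeq on GRCm38.p6 and run from 250 bases before to 50 after the start of the gene, 5′ to 3′ on its strand. Capicua is known to bind the octamers TGAATGAA and TGAATGGA, which share the letters TGAATG, and capitals mark that hexamer or its reverse complement CATTCA.
Sema3c, chr5:17574566-17574865, plus strand: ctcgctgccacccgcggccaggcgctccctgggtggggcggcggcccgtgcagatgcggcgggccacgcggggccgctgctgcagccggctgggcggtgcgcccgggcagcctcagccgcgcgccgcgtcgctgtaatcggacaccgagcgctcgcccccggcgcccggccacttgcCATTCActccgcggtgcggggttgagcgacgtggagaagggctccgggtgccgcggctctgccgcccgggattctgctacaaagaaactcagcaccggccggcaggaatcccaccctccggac
Sema7a, chr9:57939862-57940161, plus strand: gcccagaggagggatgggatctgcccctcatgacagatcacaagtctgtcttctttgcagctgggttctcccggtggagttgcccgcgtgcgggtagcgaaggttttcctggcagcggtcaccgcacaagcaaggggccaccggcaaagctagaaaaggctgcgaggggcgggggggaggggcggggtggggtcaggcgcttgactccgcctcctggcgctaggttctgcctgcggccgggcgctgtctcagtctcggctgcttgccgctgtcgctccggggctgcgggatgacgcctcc
Plxnc1, chr10:94944796-94945095, minus strand: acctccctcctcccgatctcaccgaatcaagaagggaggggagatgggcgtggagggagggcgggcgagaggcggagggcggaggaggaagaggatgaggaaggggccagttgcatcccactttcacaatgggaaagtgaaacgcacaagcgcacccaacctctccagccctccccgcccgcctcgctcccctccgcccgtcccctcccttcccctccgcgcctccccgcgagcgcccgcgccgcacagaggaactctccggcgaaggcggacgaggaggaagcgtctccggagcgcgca
Plxna2, chr1:194619579-194619878, plus strand: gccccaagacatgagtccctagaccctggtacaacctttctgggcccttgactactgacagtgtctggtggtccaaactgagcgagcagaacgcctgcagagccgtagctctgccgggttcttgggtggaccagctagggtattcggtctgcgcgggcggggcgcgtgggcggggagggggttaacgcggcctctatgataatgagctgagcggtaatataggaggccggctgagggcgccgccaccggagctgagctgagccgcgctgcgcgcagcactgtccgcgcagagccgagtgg

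The tables held 37 such windows for 26 of the 31 members. Sema6a, at 0.38, is among the 5 members without one. Sema3a, at 0.33, has a window without the hexamer, which is not shown. On both strands neither octamer was found in any of the 37, and among all 32851 windows of 300 bases TGAATGAA was found in 1.3% and TGAATGGA in 1.21%. The hexamer, which lies within both octamers, was found in 6 of the 37 (16.2%), in Sema3c, Sema3e, Sema3g, Sema4d and Plxnb3, against 12.7% of all windows. In Sema3c it begins 73 bases before the start. A match is a description of letters only, and a missing match says nothing of binding elsewhere.

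Among the 7 secreted class 3 ligands, 1 was called. Sema3c, a cue that binds neuropilins and is known for guiding neural crest cells and cortical axons, measured 6.34, 6.49, 6.30 and 6.42 in the 4 Cic-L-null cerebella, against 6.84, 6.76, 6.94 and 6.89 in the wild-type ones. Every mutant lay below every wild-type animal. Its mean was 6.39 ± 0.085 in Cic-L-null and 6.86 ± 0.076 in wild-type cerebella (SD, n = 4 each), a difference of -0.47 (SE 0.065, adjusted p = 0.0258) or 1.38-fold. Its mutant values lie just above the dim limit of 6.24. The call held in only 7 of 18 alternatives. It was lost when any 1 of 7 arrays was left out, all except wild-type replicate 1, with adjusted p from 0.0592 to 0.12. The difference stayed between -0.50 and -0.44 in these fits. The call was also lost when the gene value on each array was the median of the gene's probe sets on that array (-0.48, adjusted p = 0.421). That summary is called the median probe set below.

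Each of the 18 Sema3c probe sets averaged lower in Cic-L-null than in wild-type cerebella, whereas 48.4% of all probe sets did. Their differences ran from -0.86 to -0.19 with a median of -0.46. The groups did not overlap, with the mutants lower, in 4 of the 18, against 1.91% of all probe sets. An unadjusted p under 0.05 was found for 11 of them, against 3.04% of all probe sets in the same direction. None passed over all probe sets, where 0.000414% were called, and the smallest adjusted p of the 18 was 0.468.

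The brightest Sema3c probe set, 10519888, measured 7.88, 8.26, 8.02 and 7.99 in Cic-L-null, against 8.62, 8.96, 8.37 and 9.04 in wild-type cerebella. Its groups did not overlap, and it differed by -0.71 (SE 0.16). Probe set 10519887 lay at the other end with -0.19 (SE 0.22) and overlapping groups, with 1 wild-type array, at 7.41, among the mutants and another, at 7.17, below all of them. The wild-type mean was above the dim limit in 13 of the 18 probe sets. Probe sets of a gene share their animals, so they are no replicates, and the part of the transcript each one covers is not given in the sources used here.

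**Figure D2:**
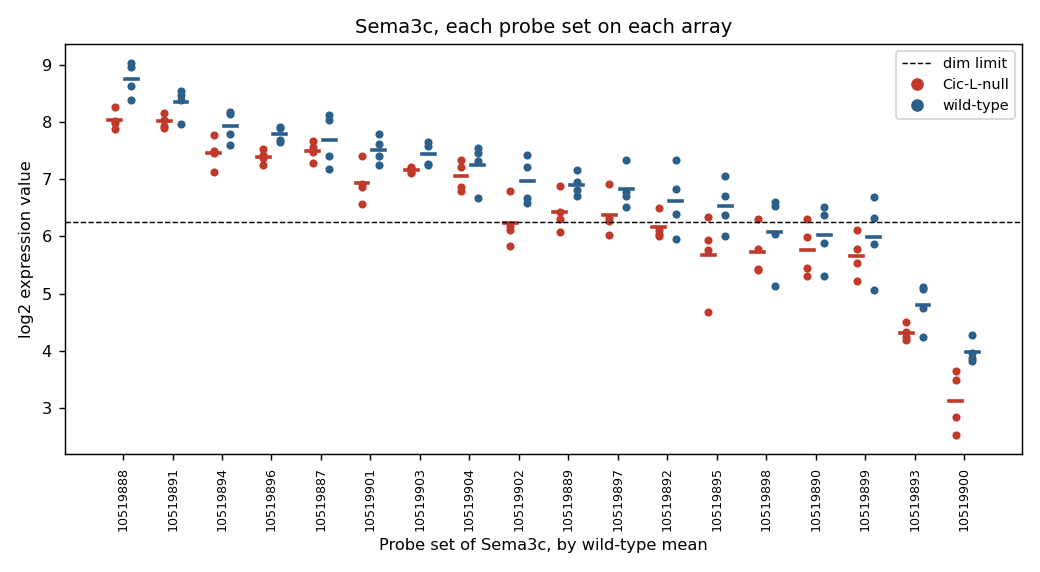
Log2 value of each of the 18 Sema3c probe sets on each array, Cic-L-null left and wild-type right in each pair, ordered by wild-type mean, with bars at the group means (n = 4) and a dashed line at the dim limit of 6.24. The mutant mean lies below the wild-type mean in all 18.

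Sema3a, the classical repellent that signals through neuropilin-1 and is held in perineuronal nets, stood in the opposite direction. It measured 8.60, 8.94, 8.84 and 8.72 in Cic-L-null cerebella, against 8.72, 8.28, 8.30 and 8.47 in wild-type ones. Wild-type replicate 1 lay among the mutants, and the other 3 wild-type animals lay below all of them. The difference was 0.33 (SE 0.11, adjusted p = 0.329), with 18 of 19 probe sets higher in the mutants. It was 0.43 without wild-type replicate 1.

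The other 5 secreted ligands differed by less. Sema3d and Sema3e, which binds plexin D1 without a neuropilin, had differences of 0.15 (SE 0.092) and 0.16 (SE 0.10). Summarised by the median probe set, Sema3d turned to -0.0072 and Sema3e was at 0.073; Sema3e was at 0.099 without mutant replicate 2 and at 0.27 without mutant replicate 3. Sema3g, a ligand of neuropilin-2, measured 6.84 to 6.90 in Cic-L-null and 6.93 to 7.05 in wild-type cerebella. Its groups did not overlap, but the gap was small at -0.11 (SE 0.054, adjusted p = 0.605). Sema3f, the other main ligand of neuropilin-2, differed by -0.094 (SE 0.077), and Sema3b by -0.0063 (SE 0.10).

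The membrane-bound class 4 held 6 ligands and no call. Sema4f had the highest difference of the class, with 8.77, 8.98, 9.01 and 9.10 in Cic-L-null, against 8.77, 8.85, 8.62 and 8.84 in wild-type cerebella. Mutant replicate 1 lay within the wild-type range and 3 above it, a difference of 0.19 (SE 0.082, adjusted p = 0.499), and of 0.31 by the median probe set. Sema4c, a ligand of plexin B2, had the lowest, with 8.60, 8.39, 8.45 and 8.51 in Cic-L-null and 8.62, 8.69, 8.75 and 8.51 in wild-type cerebella. Its groups overlapped, and it differed by -0.15 (SE 0.072, adjusted p = 0.556). The median difference of its 15 probe sets was -0.046, with 1 of them at -1.36, and the gene differed by -0.055 with the brighter probe sets only.

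Sema4g, which like Sema4c is a ligand of plexin B2 in the cerebellum, differed by 0.11 (SE 0.064). Sema4b differed by 0.11 (SE 0.076) and is the 1 member on chromosome 7, which carries Cic. Sema4a differed by 0.060 (SE 0.066). Sema4d, the ligand of plexin B1 that oligodendrocytes make, differed by -0.058 (SE 0.059), and its interval of -0.19 to 0.072 bounds any change of the gene value.

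Class 5, whose members carry thrombospondin repeats, held 1 gene on each side of 0. Sema5a measured 8.30, 7.98, 8.36 and 7.99 in Cic-L-null, against 8.44, 8.29, 8.35 and 8.44 in wild-type cerebella. Mutant replicates 2 and 4 lay below all wild-type animals, the other 2 mutants did not, and the difference was -0.22 (SE 0.095, adjusted p = 0.508). Sema5b measured 7.24, 7.21, 7.13 and 7.11 in Cic-L-null and 7.07, 7.06, 7.26 and 7.20 in wild-type cerebella, with overlapping groups and a difference of 0.029 (SE 0.066).

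Of the 4 transmembrane class 6 ligands, Sema6a and Sema6c were separated between the groups. Sema6a is the partner of plexin A2 in granule cell migration. It measured 9.41, 9.46, 9.46 and 9.59 in Cic-L-null, against 9.27, 9.08, 9.06 and 8.99 in wild-type cerebella. All mutants lay above all wild-type animals, a difference of 0.38 (SE 0.072) or 1.30-fold, with 25 of 26 probe sets higher. Its adjusted p of 0.0861 missed the threshold over all genes. It was 0.0465 when only genes above the dim limit were tested and 0.0419 without wild-type replicate 1. The threshold was passed in only 4 of 18 alternatives. The adjusted p rose to 0.262 with an array left out and to 0.462 under another setting.

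Sema6c measured 7.82, 7.69, 7.58 and 7.91 in Cic-L-null, against 7.52, 7.49, 7.54 and 7.45 in wild-type cerebella. The groups did not overlap, though mutant replicate 3 and wild-type replicate 3 nearly met, and the difference was 0.25 (SE 0.075, adjusted p = 0.288). It was 0.087, with an adjusted p of 0.929, when the gene was summarised on each array by the median of its probe sets. The median of its probe set differences was 0.21. The remaining class 6 genes overlapped. Sema6b measured 8.82, 8.93, 8.88 and 8.82 in Cic-L-null and 8.96, 8.98, 8.87 and 8.96 in wild-type cerebella, a difference of -0.077 (SE 0.056). Sema6d, a ligand of plexin A1, differed by 0.067 (SE 0.080).

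Sema7a, the single class 7 member, is held on the membrane by a lipid anchor and is known to act on climbing fibre synapses of Purkinje cells through plexin C1 and integrin beta-1. It measured 9.96, 9.48, 10.15 and 9.70 in Cic-L-null, against 10.35, 10.28, 10.29 and 10.15 in wild-type cerebella. Mutant replicate 3 reached the lowest wild-type value and the other 3 mutants lay below all of them. The mean was 9.82 ± 0.29 in Cic-L-null and 10.27 ± 0.086 in wild-type cerebella (SD, n = 4 each), so the spread among mutants was the widest of any member in either group. The difference was -0.44 (SE 0.13, adjusted p = 0.266), with 14 of 15 probe sets lower, and was not called.

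Among the 9 receptors none was called, and 6 had a difference above 0. Plxnc1, the receptor of Sema7a, measured 8.68, 8.57, 8.29 and 8.67 in Cic-L-null, against 8.03, 8.12, 7.81 and 8.03 in wild-type cerebella. All mutants lay above all wild-type animals. The difference was 0.55 (SE 0.097, adjusted p = 0.0731) or 1.47-fold, the highest of the family, and all 31 probe sets were higher in the mutants. It passed with an adjusted p of 0.0310 without mutant replicate 3, the lowest mutant. With only genes above the dim limit tested, the adjusted p was 0.0408. The threshold was passed in only 3 of 18 alternatives. The adjusted p rose to 0.245 with an array left out and to 0.224 under another setting. Integrin beta-1 (Itgb1), named after its value was seen, differed by -0.033 (SE 0.067).

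The 4 A plexins, which pair with neuropilins or bind class 6 ligands, were not alike. Plxna2, the receptor of Sema6a, measured 9.45, 9.45, 9.51 and 9.49 in Cic-L-null, against 9.29, 9.22, 9.15 and 9.07 in wild-type cerebella. The groups did not overlap, and the mutants varied little (SD 0.032). The difference was 0.29 (SE 0.062, adjusted p = 0.131), with 34 of 36 probe sets higher, and it passed only with a trended and robust variance (adjusted p = 0.0299). Plxna1 also had separate groups, 9.61 to 9.76 in Cic-L-null against 9.49 to 9.56 in wild-type cerebella, a difference of 0.15 (SE 0.056, adjusted p = 0.401).

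Plxna4, a receptor of Sema3a and Sema6a, differed by 0.020 (SE 0.091), with an interval from -0.18 to 0.22. Plxna3, an X-linked receptor of Sema3f, differed by -0.12 (SE 0.10). Mutant replicate 2 was the lowest array for both genes, at 9.47 for Plxna4 and 7.43 for Plxna3, where the other mutants lay from 9.80 to 9.86 and from 7.80 to 7.92.

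The B plexins pointed both ways. Plxnb2, which binds Sema4c and Sema4g and is needed by granule cell precursors, measured 10.15, 10.01, 10.04 and 10.04 in Cic-L-null, against 9.92, 9.83, 9.86 and 9.90 in wild-type cerebella. The groups did not overlap, the difference was 0.18 (SE 0.056, adjusted p = 0.300), and 37 of 38 probe sets were higher. Plxnb1, the receptor of Sema4d, had the lowest difference of any plexin, with 9.09, 8.91, 8.95 and 8.93 in Cic-L-null and 9.19, 9.13, 9.06 and 9.21 in wild-type cerebella. Mutant replicate 1 overlapped wild-type replicate 3, and the difference was -0.18 (SE 0.063, adjusted p = 0.378), or -0.079 by the median probe set. Plxnb3, an X-linked receptor of oligodendrocyte lineage cells, differed by -0.10 (SE 0.073), and by 0.0063 when summarised by the median probe set.

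Plxnd1, the receptor of Sema3e known from vessels and thalamic axons, differed by 0.17 (SE 0.082, adjusted p = 0.596), with overlapping groups. It was at 0.071 by the median probe set and at 0.092 without wild-type replicate 3.

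The neuropilins had differences above 0 and overlapping groups. Nrp1, shared by Sema3a, Sema3c and vascular growth factor, measured 7.42, 7.19, 7.32 and 7.30 in Cic-L-null, against 7.23, 7.15, 6.94 and 7.10 in wild-type cerebella. Mutant replicate 2 lay within the wild-type range, and the difference was 0.20 (SE 0.076, adjusted p = 0.423), or 0.11 with the probe sets above the dim limit only. Nrp2, the co-receptor of Sema3f, measured 7.48, 7.31, 7.21 and 7.43 in Cic-L-null and 7.19, 7.33, 7.25 and 7.19 in wild-type cerebella, a difference of 0.12 (SE 0.072, adjusted p = 0.689).

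**Figure D3:**
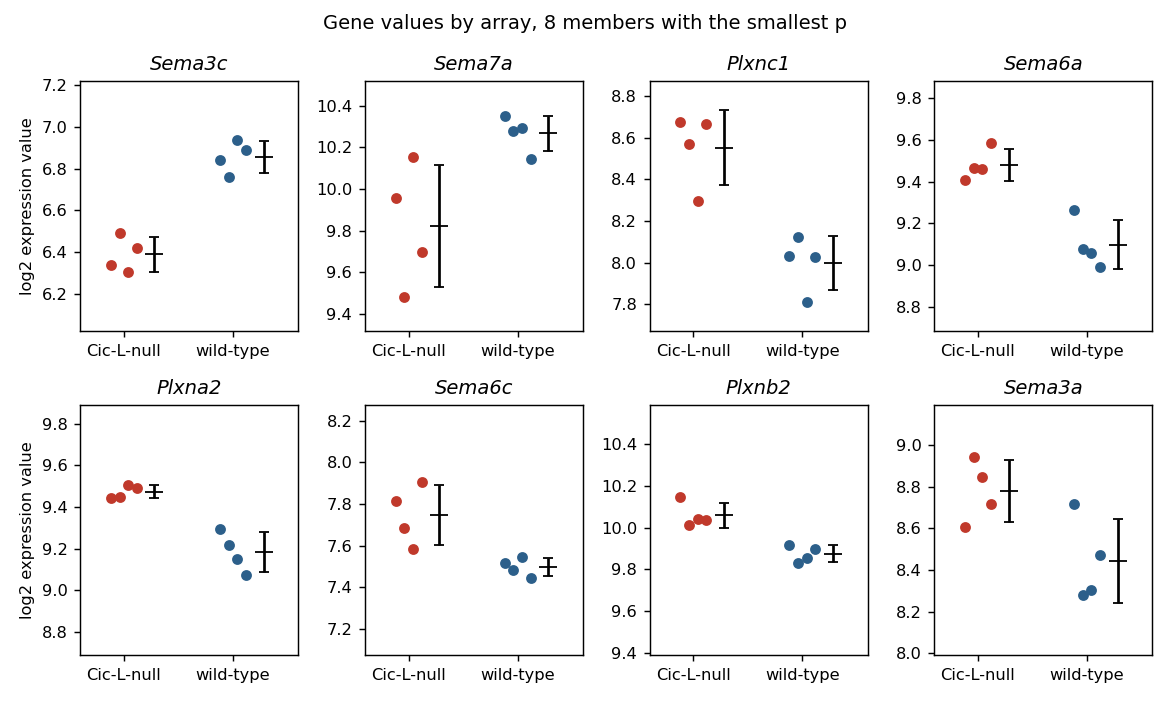
Log2 value of the 8 genes with the smallest unadjusted p on each array, Cic-L-null left and wild-type right, with bars for the mean ± SD (n = 4 per group); each panel spans the same height on its own log2 axis. The groups are separate in all panels except Sema7a and Sema3a, where 1 array crosses.

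Ligands and receptors that are known to pair can be set side by side. Sema7a stood at -0.44 and Plxnc1 at 0.55, so this pair pointed in opposite directions. Sema6a stood at 0.38 and Plxna2 at 0.29, both upward. Sema4d and Plxnb1 stood at -0.058 and -0.18, whereas Plxnb2 stood at 0.18 between its ligands Sema4c at -0.15 and Sema4g at 0.11. These pairs are of membrane-bound cues, and of their 9 genes none was called. Among secreted cues, the called Sema3c stood at -0.47 and Sema3a at 0.33, beside their shared Nrp1 at 0.20. Sema3e and Plxnd1 stood at 0.16 and 0.17, and Sema3f and Nrp2 at -0.094 and 0.12. Not every known pair is listed, and no test of the pairs was made.

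All 31 members had a wild-type mean above the dim limit, from 6.71 for Sema3b to 10.27 for Sema7a. These levels are not ranked, because probes differ in brightness. The SD between animals lay from 0.025 to 0.29 over members in Cic-L-null and from 0.030 to 0.20 in wild-type cerebella. The 18 members with an unadjusted p of at least 0.05 differed by -0.15 to 0.17.

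Counted by probe set, 450 of the 763 had a difference above 0 and 313 below. An unadjusted p under 0.05 was found for 140 of them (18.3%), against 6.8% of all probe sets. The groups did not overlap in 82 (10.7%), against 4.3%. None was called, and the smallest adjusted p, 0.129, belonged to 1 probe set of Sema6c.

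**Figure D4:**
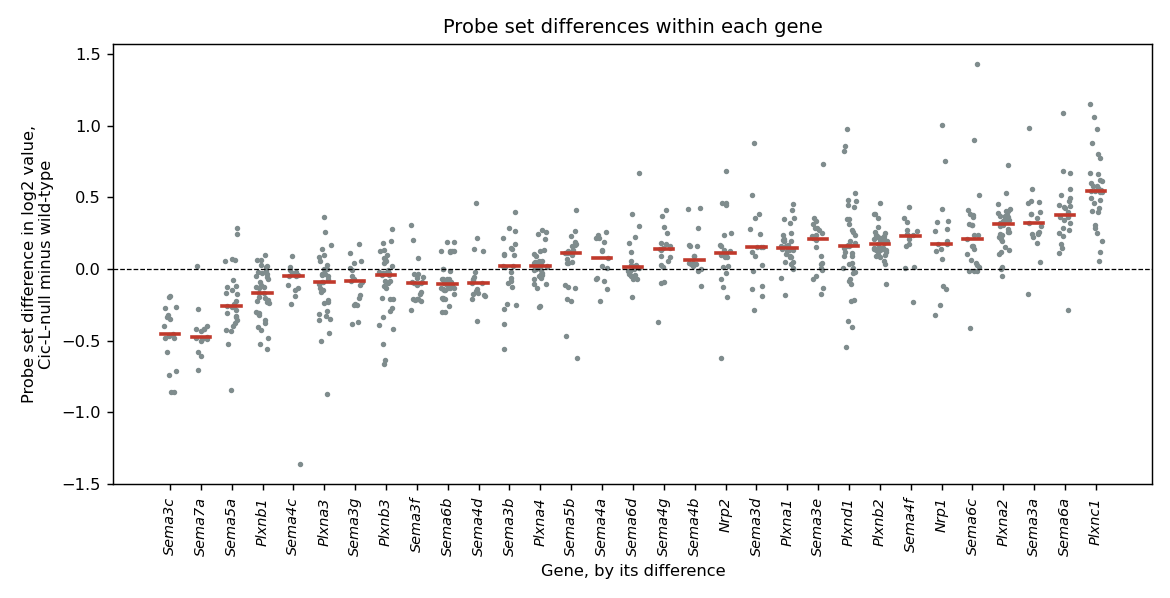
Difference in log2 value of every probe set, one point each, for the 31 genes ordered by gene value, with red bars at the median of each gene. All points lie below 0 for Sema3c and all above 0 for Plxnc1, whereas most genes have points on both sides.

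Of 55 other genes of semaphorin signalling, 52 were measured and limma called none. An unadjusted p under 0.05 was found for 6 (11.5%), 4 higher and 2 lower, beside 9.26% of all genes, and their median difference was 0.014. Among co-receptors, the vascular growth factor receptor Kdr measured 8.16, 8.21, 8.17 and 7.88 in Cic-L-null, against 8.01, 7.55, 7.44 and 7.87 in wild-type cerebella, with overlapping groups and a difference of 0.39 (SE 0.13, adjusted p = 0.337). The adhesion molecule Chl1, which joins neuropilin-1 at the axon, differed by 0.19 (SE 0.066).

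Among effectors that plexins act on, the guanine exchange factor Kalrn was at least 7.90 in every Cic-L-null cerebellum and at most 7.77 in every wild-type one, so that its groups did not overlap. Kalrn differed by 0.23 (SE 0.055, adjusted p = 0.174). Groups were separate in 2 of the 52 genes (3.85%), Kalrn upward and Cdk5 downward, against 5.94% of all genes. The small GTPase Rras2 differed by -0.34 (SE 0.099, adjusted p = 0.268), with mutant replicate 1 at 8.59 inside the wild-type range and the other 3 mutants below it. Of the collapsin response proteins and their kinases, Dpysl3 differed by 0.19 (SE 0.080) and Cdk5, which phosphorylates them in the response to Sema3a, by -0.13 (SE 0.056).

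Cell type markers were read beside these differences. The mean of 3 of 12 marker lists did not overlap between the groups. Mature oligodendrocyte markers, 13 of 14 below 0, averaged 9.74 to 9.83 in Cic-L-null and 9.87 to 9.96 in wild-type cerebella. Bergmann glia and astrocyte markers, 9 of 12 below 0, averaged 9.65 to 9.73 in Cic-L-null and 9.81 to 9.90 in wild-type cerebella, and include Fabp7 at -1.17. Cell division markers, 12 of 14 below 0 and 8 of the 14 under the dim limit, averaged 6.11 to 6.25 in Cic-L-null and 6.26 to 6.35 in wild-type cerebella. Their part in the results for Sema3c, Sema7a and the other members was not tested, and in whole tissue fewer cells of a type and less RNA per cell cannot be told apart.

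Markers of granule cells, 8 of 12 above 0, averaged 11.50 to 11.58 in Cic-L-null and 11.42 to 11.55 in wild-type cerebella. Markers of Purkinje cells, 7 of 10 above 0, averaged 10.38 to 10.44 in Cic-L-null and 10.29 to 10.42 in wild-type cerebella. Endothelial and pericyte markers, 10 of 13 below 0, averaged 8.06 to 8.25 in Cic-L-null and 8.14 to 8.32 in wild-type cerebella. These lists overlapped between the groups, as did those of interneurons, oligodendrocyte precursors, microglia, meninges, choroid plexus, and brainstem and forebrain.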

How the data were processed

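RNA of 8 cerebella was measured on 1 array each, and groups and replicate numbers were taken from the sample titles. The deposited values are log2 expression per probe set, made by the authors with RMA; the submitters' processing notes also name Affymetrix Power Tools. The version, library files and build used are not given here. Arrays give no read depth, and their number limits the precision. Names came from the deposited platform annotation, which is old: 212097 probe sets had 1 symbol, 4475 several and 25004 none. Of 20416 symbols, 17621 were current in the RefSeq table of GRCm38.p6, 2741 were replaced through a synonym and 54 were kept. A gene value was the mean of its probe sets. One probe set with an old symbol of Nrp2 stayed out, because members go by platform symbol.

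Gene values were fitted by limma 3.58.1 under R 4.3.3 (lmFit, then eBayes, with group as the only term and a two-sided p), with Benjamini-Hochberg adjustment over 20353 genes and calls at an adjusted p under 0.05. Probe sets were fitted likewise over all 241576. The fit was also run on simulated independent genes with an added change, and the check was only that its mean size was returned. It does not show how reliable the calls on these arrays are. The members and lists were chosen with earlier results of these data known, and lists were counted, not tested. Named genes were all members; values on every array were given for called members, the 8 smallest p and the extremes of each class. Pathway genes named were the 2 with the smallest p in each of 3 sublists. Alternatives covered probe set summaries, a dim limit, normalisation, variance, array weights, a replicate block, a Y-linked covariate and each array left out.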

Additional observations from a re-analysis of the deposited data

Results flagged for a closer look

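In 2 of the 62 groups of 4 arrays, 1 array stood far from the other 3 by Dixon's test at its 95% limit, where chance gives about 1 in 20. Plxna4 was at 9.47 in Cic-L-null replicate 2, against 9.80 to 9.86 in the other mutants. Sema3f was at 7.69 in wild-type replicate 1, against 7.97 to 7.99 in the other wild-type animals; without that array its difference was -0.17, with an adjusted p of 0.262.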

How the results depend on the processing

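The difference of Sema3c kept its sign under all 18 alternatives run, but its call was lost in 11 of them and held in 7. It was -0.48 (adjusted p = 0.421) with the median of the probe sets, -0.40 (0.134) with the brighter ones only, -0.44 (0.124) with those above the dim limit and -0.47 (0.104) with the replicate block, and -0.50 to -0.44 with an array left out. Genes called over all numbered 28, and 2 with the median of the probe sets, 12 with the brighter ones only, 69 among genes above the dim limit, 130 with a trended and robust variance, 54 with array weights, 0 with the replicate block, 18 with the Y-linked covariate and 0 to 37 with an array left out. Members called numbered 1, and 0 with the median, the brighter ones or the probe sets above the dim limit, 0 with the replicate block, 3 among genes above the dim limit (Plxnc1, Sema3c and Sema6a), 4 with a trended and robust variance (those and Plxna2), 2 with array weights (Sema3c and Sema6a) and 0 to 2 with an array left out. Members with an unadjusted p under 0.05 numbered 10 to 15 and members without overlap 8 to 13 with an array left out. Signs turned in 5 members, none of them called: Plxnb3 (0.0063) and Sema3d (-0.0072) with the median of the probe sets, Sema3b with the brighter ones only (0.13) or probe sets above the dim limit (0.070), and, with an array left out, Sema3b (-0.099 to 0.070), Plxna4 (-0.020 to 0.11) and Sema5b (-0.00028 to 0.066). Causes were not tested beyond what each setting changes by construction. The titles do not say whether replicate numbers pair the animals, and the main fit did not pair them. Same-numbered mutant and wild-type deviations correlated at 0.22, 0.00028, 0.21 and 0.026 for replicates 1 to 4. The values for replicates 1 and 3 were the highest of any mutant with any wild-type array, whereas replicates 2 and 4 correlated best with another number. Whether animals of the same number share a batch was therefore not settled. With 4 animals a group, small differences are not resolved.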

Other observations

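Some single probe sets stood apart from the gene they belong to, and are given here as values chosen after they were seen. Probe set 10494197 of Sema6c measured 6.55, 6.49, 6.86 and 6.93 in Cic-L-null, against 5.32, 5.50, 5.07 and 5.22 in wild-type cerebella, a difference of 1.43 (SE 0.14, adjusted p = 0.129 over all probe sets), where the median over the 25 probe sets of Sema6c was 0.21. Probe set 10409256 of Sema4d measured 8.03, 8.07, 8.15 and 8.23 in Cic-L-null, against 7.67, 7.58, 7.66 and 7.72 in wild-type cerebella, a difference of 0.46 (SE 0.083), where the median over the 18 probe sets of Sema4d was -0.098. Probe set 10600253 of Plxnb3 measured 7.20, 7.28, 7.48 and 7.31 in Cic-L-null, against 7.95, 7.75, 8.07 and 8.04 in wild-type cerebella, a difference of -0.63 (SE 0.11), where the median over the 34 probe sets of Plxnb3 was -0.043. In each of the 3 the groups did not overlap, and none was called over all probe sets.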
